A study of Homo sapiens with 20 samples.

Results

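CYP2A6, CYP2A7, CYP2A13 and CYP2B6 are neighbouring genes of a cluster of cytochrome P450 family 2 genes on chromosome 19. Their expression was followed on arrays of HepaRG cells through differentiation, with and without dimethyl sulfoxide (DMSO). The members were chosen by symbol, as every array probe whose RefSeq accession belongs to one of the 4 genes. Of the 4 genes, 3 had a probe, among 19062 genes with a RefSeq symbol on the array. CYP2A7 (NM_000764) had 1 probe, CYP2A13 (NM_000766) had 1 probe and CYP2B6 (NM_000767) had 2 probes. No accession matched CYP2A6, which was not analysed here. All 4 member probes passed the filter on dim probes, among 26334 probes tested.

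HepaRG is a human hepatoma line whose progenitors give rise to hepatocyte-like and biliary-like cells in 1 culture. The conditions, each with 4 arrays from independent experiments, were D4 (proliferating progenitors 4 days after seeding), D15 (committed cells), D30 − DMSO (cells cultured to day 30 without DMSO), D30 + DMSO (cells that received 2% DMSO from day 15 to day 30) and D34 ± DMSO (cells of the latter kind kept for 4 further days after DMSO was removed). All 5 conditions shared a medium with serum, insulin and the glucocorticoid hydrocortisone. Cy3-labelled copies of total RNA were measured on one-color arrays, and every culture came from the single HepaRG line.

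Enzymes of the CYP2A and CYP2B subfamilies are membrane-bound monooxygenases of the endoplasmic reticulum that oxidise drugs, nicotine and other foreign compounds with electrons from cytochrome P450 reductase. CYP2B6, which metabolises bupropion, efavirenz and cyclophosphamide, is a classical target of the constitutive androstane receptor CAR (gene NR1I3) and the pregnane X receptor PXR (gene NR1I2), which bind DNA with the retinoid X receptor RXRA. CYP2A6 is the main nicotine and coumarin hydroxylase of human liver, CYP2A13 is known mainly from the respiratory tract, and CYP2A7 encodes a closely related protein without known catalytic activity.

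The sequences before the start sites are shown to let the near-identical CYP2A genes be compared with each other and with CYP2B6. Each run holds the 160 bases before the annotated start, read 5′ to 3′ along the gene's own strand, from the RefSeq promoter table of GRCh38.p14, with capitals marking the letters TATAAA (the TATA box) and AGTCCA (a half-site of the hepatocyte factor HNF4) on either strand.
CYP2A6, chr19:40850448-40850607, minus strand: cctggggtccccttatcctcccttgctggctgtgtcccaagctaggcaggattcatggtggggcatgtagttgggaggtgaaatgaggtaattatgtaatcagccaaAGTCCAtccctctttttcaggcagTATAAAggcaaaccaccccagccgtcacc
CYP2A7, chr19:40882232-40882391, minus strand: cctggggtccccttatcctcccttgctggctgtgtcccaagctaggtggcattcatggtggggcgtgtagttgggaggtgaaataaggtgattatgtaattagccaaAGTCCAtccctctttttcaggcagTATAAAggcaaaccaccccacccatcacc
CYP2A13, chr19:41088291-41088450, plus strand: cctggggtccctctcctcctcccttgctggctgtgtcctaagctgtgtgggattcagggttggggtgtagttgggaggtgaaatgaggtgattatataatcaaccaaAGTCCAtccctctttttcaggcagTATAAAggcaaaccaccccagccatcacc
CYP2B6, chr19:40991122-40991281, plus strand: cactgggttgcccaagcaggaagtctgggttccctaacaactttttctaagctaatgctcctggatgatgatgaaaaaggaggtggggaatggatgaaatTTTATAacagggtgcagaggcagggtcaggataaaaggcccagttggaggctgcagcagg

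In a global alignment of these runs, CYP2A6 and CYP2A7 were identical at 151 of 160 aligned positions (94.4%), CYP2A6 and CYP2A13 at 145 of 161 (90.1%), and CYP2A7 and CYP2A13 at 146 of 161 (90.7%). CYP2B6 shared between 49.1% and 51.7% with the CYP2A runs. In all 3 CYP2A genes, AGTCCA lay 53 to 48 bases and TATAAA 29 to 24 bases before the start. In CYP2B6, the only exact match of TATAAA was on the opposite strand, 60 to 55 bases before the start. On its own strand, the run holds gataaaa nearer the start, which an exact search passes over and capitals do not mark. Of the 35116 promoter windows in the table, 7.04% held TATAAA and 5.97% held AGTCCA in the same 160 bases on either strand. Further letters were searched on both strands in the 250 bases before the start: AGGTCA (a nuclear receptor half-site), GTTAAT (an HNF1 half-site) and GCAAT (a C/EBP half-site). Among the members, AGGTCA was found in CYP2B6, 164 to 159 bases before the start, and GTTAAT and GCAAT had no match in any of the 4. Of all windows, 12.1% held AGGTCA, 6.23% GTTAAT and 21.3% GCAAT in 250 bases. CYP2B6 also held AGTCCA on the opposite strand, 231 to 226 bases before the start, and 9.63% of all windows held it in 250 bases. A match of letters is a description and no binding site.

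Signals are given in intensity units after each array was scaled to a common 75th percentile of 384, and log2 values are relative to that percentile, so that they compare conditions for 1 probe and not one probe with another. Differences were tested with limma over all probes, with n = 4 arrays per condition, and a call needed more than 2-fold change together with a p below 0.005 after Benjamini-Hochberg adjustment. Before scaling, the 75th percentile of the arrays lay between 283 and 530 intensity units, and between 61.1% and 74.2% of the 58717 spots of an array were well above background. Log2 values of replicate arrays correlated across probes with r between 0.954 and 0.992. The arrays lie on 4 slides scanned in 2 sessions, and slide 4, which alone made up the second session, holds replicate 4 of every condition and replicate 3 of D15 and of D30 + DMSO. The 4 arrays of D30 + DMSO lie on slides 3 and 4 only, and within-slide values are given beside the results. Of the hepatocyte plasma protein markers, 9 of 9 were called higher when D15 was compared with D4, against 5.7% of all genes. The summed signal of these markers went from between 83667 and 189492 units to between 736360 and 1118320 units. In RNA of whole cultures, fewer cells of a type and less RNA per cell cannot be told apart.

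Over the 5 conditions, 3 of the 4 member probes were called by limma's moderated F-test, which asked for a p below 0.001 after Bonferroni adjustment and for over 3-fold between the extreme condition means, where 4.95% of all probes were called. The probe not called was the second CYP2B6 probe. In the plot of array values by condition, the 3 called probes had their highest signals on the 4 arrays of D30 + DMSO.

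**Figure D1:**
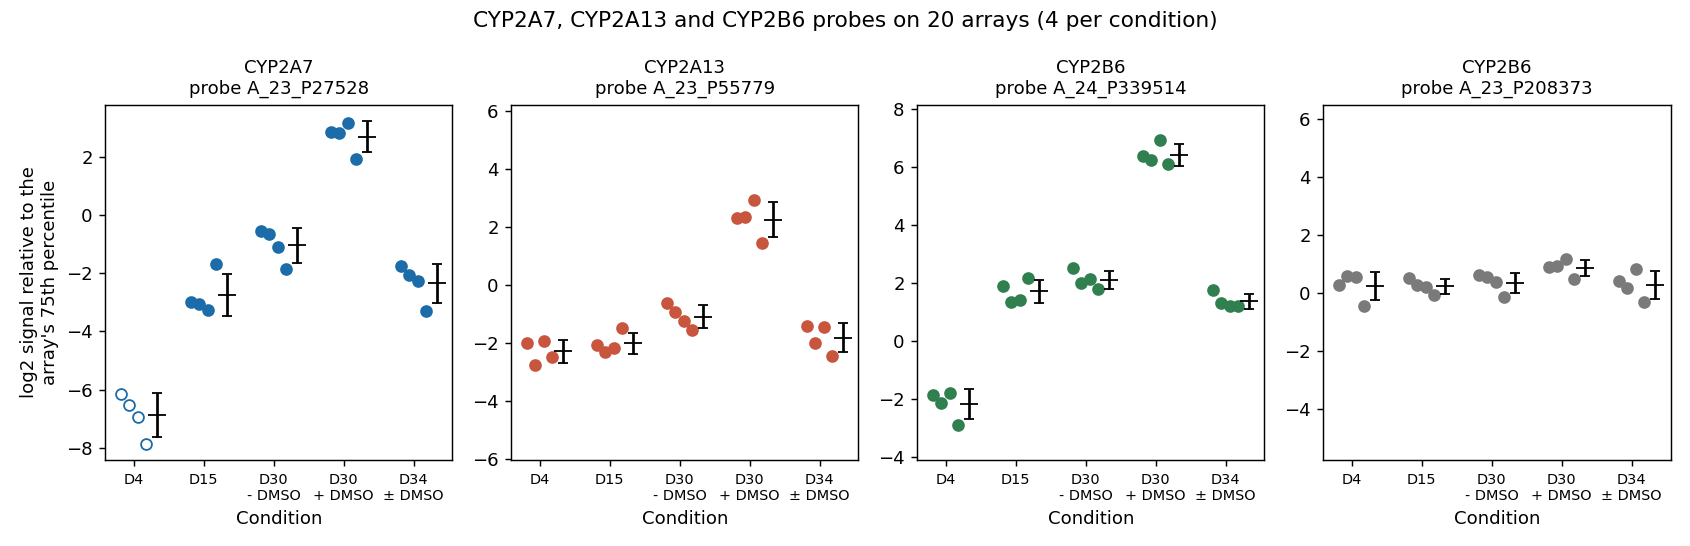
Log2 signal relative to the 75th percentile of the array (vertical axis) for each of the 4 member probes in the 5 conditions (horizontal axis). Each circle is 1 array, open circles are arrays on which the probe was not well above background, and black bars are the mean ± SD of 4 arrays. Panels have their own offsets and the same span. CYP2A7, CYP2A13 and the CYP2B6 probe A_24_P339514 peak at D30 + DMSO, where means are 2.72, 2.25 and 6.42, and the CYP2B6 probe A_23_P208373 stays between means of 0.23 and 0.87.

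The main CYP2B6 probe, A_24_P339514, had signals of 106, 87.9, 113 and 51.6 on the arrays of D4 and of 1453, 992, 1022 and 1730 at D15. Without DMSO, they were 2192, 1528, 1709 and 1326 at D30, and with DMSO 32183, 29118, 47311 and 26642. After DMSO removal they were 1299, 963, 895 and 889. The arrays of D4 lay below and those of D30 + DMSO above all others, while D15 overlapped with D30 − DMSO and with D34 ± DMSO. The coefficient of variation within a condition was between 19.2% and 30.6%.

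The CYP2A7 probe had signals of 5.44, 4.14, 3.13 and 1.63 at D4, on none of which it was well above background. It had 48.7, 45.9, 39.8 and 121 at D15, where all 4 arrays were well above background, and 264, 249, 180 and 107 at D30 − DMSO. With DMSO the signals were 2814, 2790, 3539 and 1474, and after removal 114, 93.6, 79.4 and 38.9. The D30 + DMSO arrays lay above all others, and replicate 4 of D15, on slide 4, exceeded the other 3 arrays of its condition and reached into the range of D30 − DMSO.

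The CYP2A13 probe had signals of 94.9, 57.3, 102 and 69 at D4, all well above background, and of 91.8, 76.7, 84.5 and 136 at D15. It had 252, 202, 161 and 130 at D30 − DMSO and 1897, 1932, 2895 and 1058 at D30 + DMSO. After DMSO removal the signals were 146, 96.7, 142 and 70.3. The values of D4, D15 and D34 ± DMSO overlapped, and those of D30 + DMSO lay above all others. Probe sequences were not used here, and the part of each CYP2A signal that may come from a neighbouring CYP2A transcript, CYP2A6 included, was not tested.

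The second CYP2B6 probe, A_23_P208373, carries the same accession. Its signals were 464, 582, 558 and 283 at D4, between 363 and 550 at D15, and 587, 569, 499 and 347 at D30 − DMSO. At D30 + DMSO they were 712, 730, 866 and 537, and after removal 514, 433, 678 and 311. All conditions overlapped with one another. The probes of CYP2B6 thus disagreed in size of change, with 384-fold between the highest and lowest condition mean for A_24_P339514 and 1.56-fold for A_23_P208373. Which of them reports CYP2B6 was not tested. Where CYP2B6 is given a value or rank without a probe name, it stands for A_24_P339514, whose mean over the arrays was higher. On the 2 spots of A_23_P208373, signals differed by a median of 3.6% over the 20 arrays, and A_24_P339514 had no replicate spot on an array.

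From D4 to D15, the step from progenitors to committed cells, 2 of the 4 member probes were called higher, against 5.48% of all probes. CYP2B6 (A_24_P339514) rose 14.7-fold, a log2 change of 3.88 ± 0.26 (SE; adjusted p = 3.25e-09). CYP2A7 had a fitted log2 difference of 4.13 (adjusted p = 8.58e-07), which rests on D4 signals not well above background. On the scaled signals it was at least 4.37-fold higher. This bound was set by the dimmest probe signal that passed the background flag on each D4 array. CYP2A13 differed by 0.27 (95% interval −0.37 to 0.92, adjusted p = 0.623), and A_23_P208373 by −0.01 (−0.55 to 0.53). Within slides 2, 3 and 4, the log2 difference was 3.77, 3.14 and 4.69 for CYP2B6 and −0.05, −0.41 and 0.64 for CYP2A13. With the normexp background correction, the fitted log2 difference of CYP2A7 was 1.12, below that bound, and it was still called.

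From D15 to D30 − DMSO, 2 weeks without DMSO, none of the 4 member probes was called by limma, where 0.0038% of all probes were called higher. Log2 differences were 1.72 for CYP2A7 (95% interval 0.81 to 2.63), 0.93 for CYP2A13 (0.28 to 1.58), 0.39 for CYP2B6 (−0.15 to 0.93) and 0.12 for A_23_P208373 (−0.42 to 0.66). Before adjustment, 2 of the 4 probes had p below 0.05 in the limma fit, against 648 of 22055 genes. This p was 0.000923 for CYP2A7 and 0.00728 for CYP2A13, and the adjusted p was 0.506 for CYP2A7. The methods' t-test with adjustment also called 0. Within slides 2, 3 and 4, CYP2A7 differed by 2.35, 2.52 and 0.62. On the 13 arrays of the first scan session alone, its difference was 2.27 (adjusted p = 0.00673), and it was not called.

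DMSO addition was compared at matched age, D30 + DMSO against D30 − DMSO. Of the 4 member probes, 3 were called higher with DMSO, against 1.67% of all probes. CYP2B6 (A_24_P339514) rose 19.9-fold, a log2 change of 4.31 ± 0.26 (SE; adjusted p = 5.99e-09). CYP2A7 rose 13.4-fold, by 3.75 (SE 0.43, adjusted p = 6.77e-06), and CYP2A13 10.1-fold, by 3.34 (SE 0.31, adjusted p = 4.91e-07). For each of these, all 4 arrays with DMSO lay above all 4 without. How many of all probes had such a separation was not counted, here or in the comparisons below. A_23_P208373 differed by 0.52 (95% interval −0.02 to 1.06, adjusted p = 0.199). By the size of the fitted rise, CYP2B6 was number 3, CYP2A7 number 8 and CYP2A13 number 16 of 22055 genes or transcripts, each represented by its probe with the highest mean. The median difference over all of these was 0.04.

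Within slides 3 and 4, the log2 difference of DMSO addition was 3.80 and 4.74 for CYP2B6, 3.41 and 4.42 for CYP2A7, and 2.93 and 3.75 for CYP2A13. The second CYP2B6 probe differed by 0.30 and 0.97. With the slide as a block over all arrays, the values were 4.37 for CYP2B6, 3.96 for CYP2A7 and 3.28 for CYP2A13, all called. Within each slide the comparison rests on 2 arrays with DMSO and 1 without. Beside this rise, the summed signal of the 9 hepatocyte markers was between 945505 and 1001770 units at D30 − DMSO and between 1076330 and 1827970 units at D30 + DMSO. Of these markers, 0 were called higher with DMSO by limma and 1, the plasma protein gene AHSG, was called lower, by −2.66 on the log2 scale. Of all genes, 1.74% were called higher and 4.11% lower. An unadjusted limma p below 0.05 was found for 4 of the 9 markers, against 6257 of 22055 genes. The part of these markers in the rise of the CYP2 genes was not tested.

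DMSO removal was compared as D34 ± DMSO against D30 + DMSO, which shares the D30 + DMSO arrays with the comparison above. The same 3 probes were called, all lower, against 1.92% of all probes. CYP2A7 had a log2 change of −5.06 ± 0.43 (SE; adjusted p = 1.48e-07), CYP2B6 (A_24_P339514) of −5.04 ± 0.26 (adjusted p = 5.42e-10) and CYP2A13 of −4.07 ± 0.31 (adjusted p = 4.31e-08). These are 33.4-fold, 33-fold and 16.8-fold lower signals, and all 4 arrays after removal lay below all 4 with DMSO. A_23_P208373 differed by −0.59 (95% interval −1.13 to −0.05, adjusted p = 0.119). Among all genes or transcripts, CYP2A7 was number 3, CYP2B6 number 4 and CYP2A13 number 9 by the size of the fitted fall.

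Within slides 3 and 4, the log2 difference of removal was −4.88 and −5.88 for CYP2A7, −4.83 and −5.32 for CYP2B6, and −3.74 and −4.64 for CYP2A13. With the slide as a block, they were −5.22, −5.08 and −4.04, all called. With the normexp background correction, the fall was smaller and still called, at −4.10 for CYP2A7 and −3.46 for CYP2A13. Over the same step, 5 of 5 proliferation markers were called higher, against 5.05% of all genes. The summed signal of these markers went from between 317 and 895 units to between 4020 and 9914 units. Hepatocyte marker sums overlapped between D34 ± DMSO (904013 to 1147700 units) and D30 + DMSO. The part of these changes in the fall of the CYP2 genes was not tested.

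**Figure D2:**
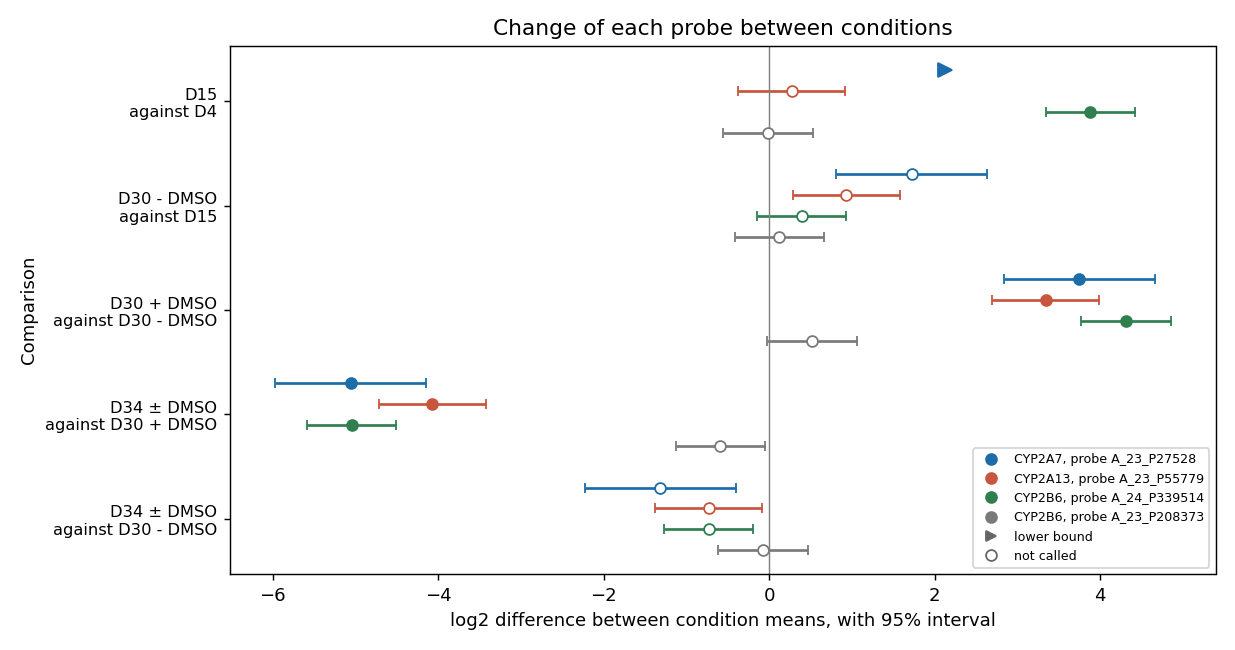
Log2 difference between condition means of each member probe (horizontal axis) in 5 comparisons (vertical axis), with 95% intervals from limma. Filled circles were called, open circles were not called, and the triangle is the lower bound on the scaled signals for CYP2A7, which was not well above background at D4. The 3 probes called for DMSO addition lie between 3.34 and 4.31, and after removal between −5.06 and −4.07.

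**Figure D3:**
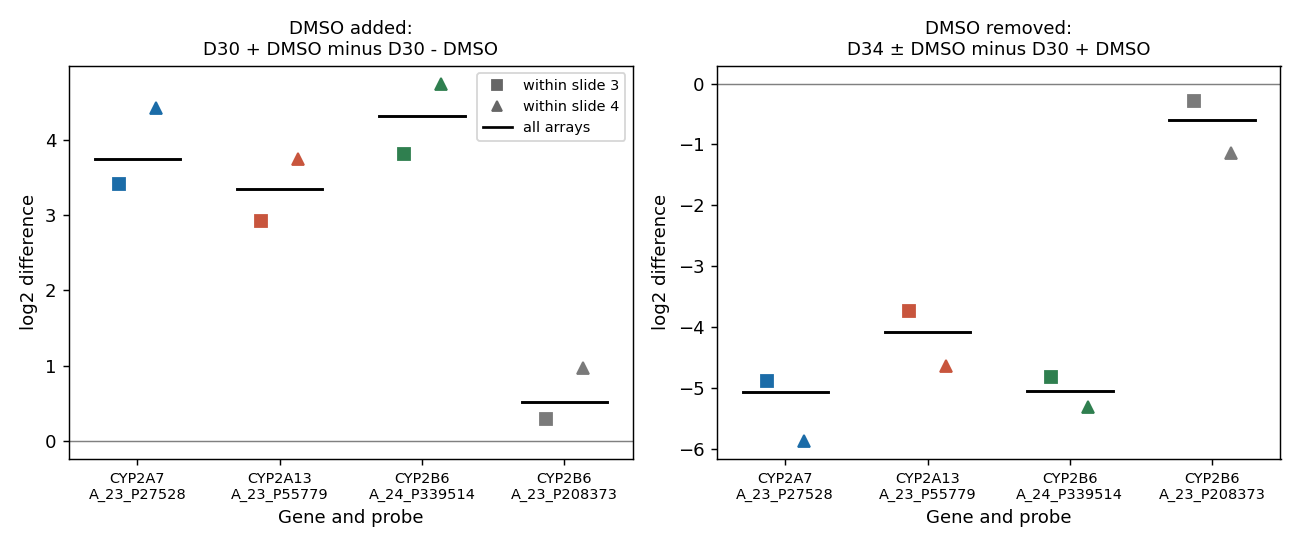
Log2 difference for DMSO addition (left) and DMSO removal (right) within slide 3 (squares) and slide 4 (triangles), beside the difference over all arrays (black lines), for each member probe on the horizontal axis. CYP2A7, CYP2A13 and CYP2B6 probe A_24_P339514 are above 2.9 for addition and below −3.7 for removal on both slides.

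The cells after DMSO removal were also set against cells never exposed to DMSO. They were also 4 days older, so that age and the earlier DMSO cannot be told apart. In D34 ± DMSO against D30 − DMSO, none of the 4 member probes was called by limma, where 0.167% of all probes were called lower. Log2 differences were −1.31 for CYP2A7 (95% interval −2.23 to −0.40, adjusted p = 0.109), −0.73 for CYP2A13 (−1.38 to −0.09, adjusted p = 0.251), −0.73 for CYP2B6 (−1.27 to −0.19, adjusted p = 0.139) and −0.08 for A_23_P208373 (−0.62 to 0.46). Of the 4 probes, 3 had an unadjusted p below 0.05, against 3200 of 22055 genes, and in the methods' t-test with adjustment 0 were called. Unadjusted p-values of limma were 0.00729, 0.0284 and 0.0106 for the first 3 probes. For CYP2B6 (A_24_P339514), all 4 arrays after removal lay below all 4 without DMSO, and for the other probes the conditions overlapped. Within slides 1, 3 and 4, the difference was −0.95, −1.47 and −1.46 for CYP2A7. These intervals do not show that removal brought the genes back to the level of cells without DMSO.

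Over the second phase with DMSO, D30 + DMSO against D15, 3 member probes were called higher, against 2.2% of all probes, with log2 rises of 5.47 for CYP2A7, 4.27 for CYP2A13 and 4.71 for CYP2B6. Over the whole protocol, D30 + DMSO against D4, the same 3 were called higher, against 8.83% of all probes. On the scaled signals, CYP2A7 was at least 193-fold, CYP2B6 384-fold and CYP2A13 23.3-fold higher at D30 + DMSO. In D30 − DMSO against D4, 2 probes were called higher, against 6.03% of all probes, CYP2A7 at least 14.4-fold and CYP2B6 19.3-fold. CYP2A13 differed by 1.20 there (95% interval 0.56 to 1.85, adjusted p = 0.00648), with all 4 arrays at D30 − DMSO above those of D4, and was not called. With the slide as a block, the same difference passed (adjusted p = 0.00399). In D34 ± DMSO against D4, 2 probes were called higher, against 5.49% of all probes, CYP2A7 at least 5.79-fold and CYP2B6 11.6-fold. The bounds for CYP2A7 hold for the scaled signals only. The normexp background correction gave smaller fitted differences of CYP2A7 from D4, all still called. On the log2 scale they were 5.44 at D30 + DMSO, 2.17 at D30 − DMSO and 1.34 at D34 ± DMSO, below these bounds.

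The order of the condition means, from low to high, was D4, D15, D34 ± DMSO, D30 − DMSO and D30 + DMSO for CYP2A7 and for CYP2A13, and D4, D34 ± DMSO, D15, D30 − DMSO and D30 + DMSO for CYP2B6 (A_24_P339514). For all 3, the step from D30 − DMSO to D30 + DMSO was called. The lowest step, from D4 to the next condition, was called for CYP2A7 and CYP2B6. The other neighbours in the order were not called. For CYP2A7, D34 ± DMSO and D15 differed by 0.41 (95% interval −0.51 to 1.32), for CYP2A13 by 0.20 (−0.45 to 0.84) and for CYP2B6 by −0.34 (−0.88 to 0.20).

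The size of these changes was compared between members within arrays, by exact two-sided permutation tests of 4 arrays against 4. None of the 9 tests reached an adjusted p below 0.05. Even those at the smallest possible p had an adjusted p of 0.0514, so the adjusted values cannot decide whether members differ. On DMSO addition, CYP2A13 rose by 0.97 less than CYP2B6 on the log2 scale (exact p = 0.0286, adjusted p = 0.0514). On removal, it fell by 0.97 less than CYP2B6 and by 0.99 less than CYP2A7 (exact p = 0.0286 for each, adjusted p = 0.0514). The raw value is the smallest p that 4 against 4 can give. CYP2A7 and CYP2B6 differed by −0.57 on addition (exact p = 0.0857) and by −0.02 on removal (exact p = 1). From D4 to D15, CYP2B6 rose by 3.61 more than CYP2A13 (exact p = 0.0286, adjusted p = 0.0514).

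Over the 20 arrays, log2 values of CYP2A7 and CYP2B6 (A_24_P339514) correlated with r = 0.98, CYP2A13 and CYP2B6 with r = 0.89, and CYP2A7 and CYP2A13 with r = 0.87. Taken as deviations from the condition means, r was 0.77, 0.71 and 0.75. The second CYP2B6 probe had r = 0.56 with the first over the 20 arrays. These values are descriptions, since the points share conditions, arrays and slides. Of 14069 genes with a symbol that are no members, those with values most like CYP2B6 were GNMT (r = 0.995), which encodes the hepatic glycine N-methyltransferase, CYP3A4 (0.982), the main drug-oxidising P450 of adult liver, CYP4F8, SELENBP1 and TMBIM6. For CYP2A7 they were GNMT (0.983), CYP3A4 (0.978), KCNK5, ERRFI1 and CYP3A7. For CYP2A13 they included MPP1 (0.964), LHPP, SVIP and ASIC4, none of which is named for CYP2A7 or CYP2B6. These 4 genes differed by between −0.09 and 0.30 from D4 to D15, and CYP2A13 itself by 0.27. They were picked by correlation over the same arrays, D4 and D15 included, so this likeness is no separate result.

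Of the transcription factors described as acting on CYP2A6 or CYP2B6, 18 of 19 passed the filter. With DMSO addition, 2 were called higher and 1 lower, where 1.74% of all genes were called higher and 4.11% lower. Their median was 0.23, against 0.04 over all genes. NR1I3 rose 5.36-fold, a log2 change of 2.42 ± 0.39 (SE; adjusted p = 0.000185). NR0B2, a corepressor of nuclear receptors, rose by 1.55 (SE 0.32, adjusted p = 0.00189), and VDR, the vitamin D receptor, fell by 1.35 (SE 0.19, adjusted p = 4.34e-05). On DMSO removal, NR1I3 fell by 2.02 and NR0B2 by 2.78, and VDR rose by 1.15, all called. NR1I2 differed by 1.03 with addition (adjusted p = 0.00907), which was not called, and by −0.49 with removal. RXRA differed by 0.20 and −0.29, and HNF4A, which encodes a hepatocyte nuclear receptor, by 0.54 and −0.11, none of them called. The HNF4A probe was dim, with log2 means of −3.79 at D30 − DMSO and −3.25 at D30 + DMSO, though well above background on all 4 arrays of each.

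Between D4 and D15, 7 of these factors were called higher and 1 lower, where 5.7% of all genes were called higher and 3.82% lower. NR1I3 rose by 3.01 and NR1I2 by 3.34, each well above background on 2 of 4 arrays at D4. HNF4A was called higher and was well above background on 0 of 4 arrays at D4. In cells after DMSO removal, NR1I3 had a mean of −0.17 ± 0.77 (SD), against −0.57 ± 0.65 at D30 − DMSO, a difference of 0.40 that was not called (adjusted p = 0.788). In that comparison, 1 of the factors was called, lower, against 0.181% of all genes. It was PPARGC1A, a coactivator of nuclear receptors, at −1.15 (SE 0.16, adjusted p = 0.000157). Its mean was 1.12 at D30 − DMSO, already lower at D30 + DMSO (0.13), and −0.04 at D34 ± DMSO. NR0B2 differed by −1.23 (adjusted p = 0.0336). The values of PPARGC1A and NR0B2 are given after they were seen.

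**Figure D4:**
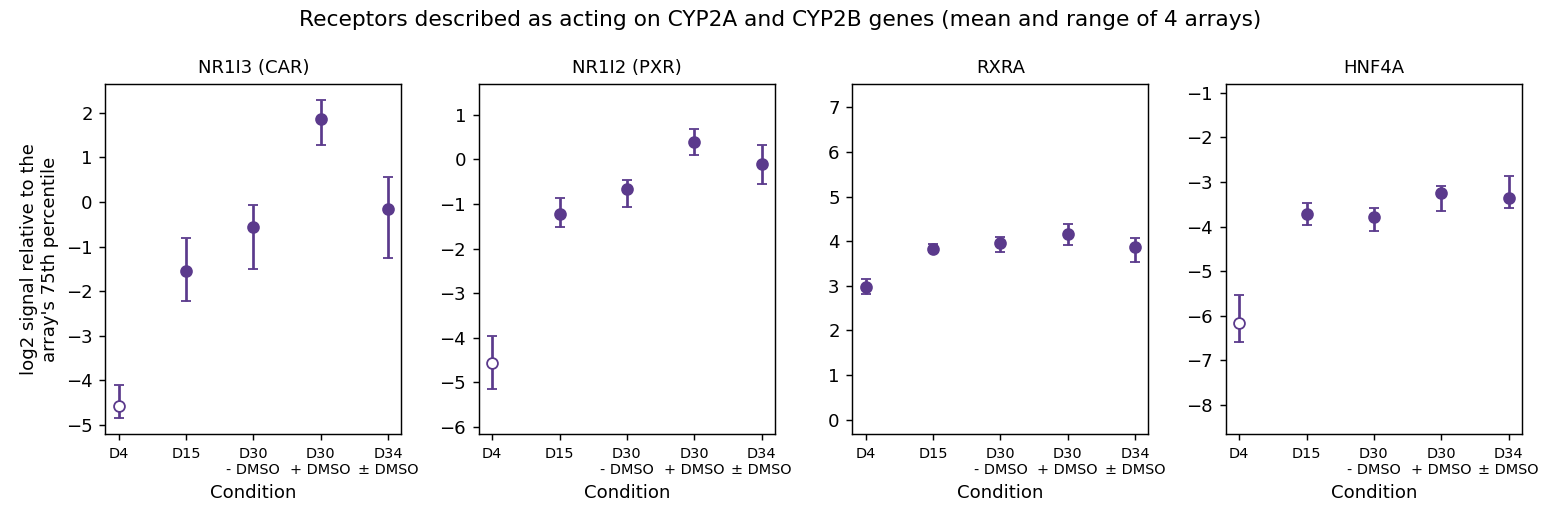
Mean log2 signal relative to the 75th percentile of the array (vertical axis) of NR1I3, NR1I2, RXRA and HNF4A in the 5 conditions (horizontal axis), with bars from the lowest to the highest of 4 arrays. Open circles mark conditions in which fewer than 4 arrays were well above background. Panels have their own offsets and the same span. NR1I3 has its highest mean, 1.85, at D30 + DMSO and lies at −0.17 after removal.

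Of the listed reductase, cytochrome b5 and heme genes, 7 of 8 passed the filter. With DMSO addition, 0 were called higher and 1 lower, where 1.74% of all genes were called higher and 4.11% lower. The called gene was CYB5B (a cytochrome b5), which fell by 1.08, while the median of the list was 0.41. CYB5A, another cytochrome b5, had means of 6.18 at D30 − DMSO and 6.93 at D30 + DMSO and was not called. The reductase gene POR had no matched probe. Of the other CYP2 genes and pseudogenes of the chromosome 19 cluster, 2 of 10 had a probe, CYP2F1 and CYP2S1, and neither passed the filter on dim probes. Of the 10 listed genes without P450 that flank the cluster, 9 passed the filter, and limma called 0 for DMSO addition or for removal. An unadjusted limma p below 0.05 was found for 4 of them in each, against 6257 of all 22055 genes for addition and 6886 for removal. The median difference of the flanking genes was −0.23 with addition and 0.29 with removal. The lowest adjusted p was that of AXL, chosen here after its values were seen, which differed by 0.85 with removal (adjusted p = 0.00379), under 2-fold, and by −0.71 with addition (adjusted p = 0.0153).

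The 10 CYP2 genes at other loci all passed the filter, and 4 were called higher with DMSO addition and 2 lower with removal, where 1.74% of all genes were called higher with addition and 1.99% lower with removal. Among them, CYP2E1, which oxidises ethanol, rose by 4.75 (SE 0.44), CYP2C19 by 2.81 and CYP2J2 by 1.13. On removal, CYP2E1 fell by 3.56, while CYP2C19 differed by −0.91 (adjusted p = 0.177). Of the genes known as induced through PXR and CAR, 14 of 18 passed the filter, and 6 were called higher with addition and 3 lower with removal, against the same 1.74% and 1.99% of all genes. CYP3A4 rose by 4.07 and fell by 6.50, and CYP3A7, the fetal form, rose by 2.92 and fell by 3.29. EPHX1, the microsomal epoxide hydrolase, rose by 1.87. The median of this list was 1.49 with addition and −0.99 with removal, against 0.04 and −0.04 over all genes.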

How the data were processed

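The authors deposited, for each of 20 one-color Agilent 8x60K arrays, the Feature Extraction output (version 10.7.3.1 per the submitters' processing notes), whose processed signal is an intensity in linear units from which background and spatial trend were already removed. The deposited files also hold median intensities and flags of 0 or 1 as scores. A deposited matrix of log2 values per probe, relative to a baseline, matched the scaled signals used here with a median absolute difference of 3.47e-07 over 21518 probes, and its column medians were −0.20 to 0.17.

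Spots of a probe were averaged without outlier-flagged spots, divided by the array's 75th percentile and brought to the common one, floored at 1 and log2-transformed. A probe was tested if all 4 arrays of some condition had it well above background (26334 of 42405). RefSeq accessions of GRCh38.p14 named 24826 probes, and 17579 were unnamed. One limma fit with 5 condition means over all arrays was used (R 4.3.3 with limma 3.58.1), since the methods' thresholds were kept with limma's tests in place of their t-test and analysis of variance. Adjusted p-values are Benjamini-Hochberg values over all probes tested. Within-array differences between members were compared by exact permutation. A fold against a condition with no array well above background is given as a bound on the scaled signals, and normexp fits of CYP2A7 lay below it. The calling step was tested on simulated data.

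Members, gene lists and the rule for named genes were chosen with earlier results of these data known. Named are all member probes, the 5 most correlated genes per member, NR1I3, NR1I2, RXRA, HNF4A and POR, and otherwise at most 4 called genes per list with the largest change of DMSO addition. Not every gene that the rule picks is reported here. The lists cover transcription factors, reductase, cytochrome b5 and heme genes, cluster neighbours, flanking genes, other CYP2 genes, PXR and CAR targets, and hepatocyte, biliary, proliferation and other lineage markers. Of the biliary markers, 4 of 6 passed the filter, with SOX9 called higher and SPP1 lower with DMSO addition, against 1.74% and 4.11% of all genes. Of markers of other lineages, 4 of 6 passed and 0 were called for addition by limma. At an unadjusted limma p below 0.05 there was 1, against 6257 of 22055 genes.

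Alternatives were quantile normalization, normexp correction (offset 50), the deposited matrix, other filters and floors, 1 probe per gene, slide, scan session or replicate number as a block, fits of the compared arrays alone, the t-test of the methods, other thresholds and leaving out each array. Fits of the first scan session, within-slide values, and the alternatives for comparisons with D4 other than that of D15 and for D34 ± DMSO against D15 were chosen after seeing the data. The number of arrays limits the precision.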

Additional observations from a re-analysis of the deposited data

How the results depend on the processing

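The alternatives were run for all 10 comparisons of the 5 conditions, of which the 3 of D30 − DMSO, D30 + DMSO and D34 ± DMSO against D4 and that of D34 ± DMSO against D15 were added after seeing the data. The filter on probes well above background on all 20 arrays leaves out CYP2A7, so that 1 member probe was called in place of 2 for D15, D30 − DMSO and D34 ± DMSO against D4, and 2 in place of 3 in each of the 4 comparisons with D30 + DMSO. For D30 − DMSO against D4, CYP2A13 was also called, making 3 in place of 2, with the slide, the scan session or the replicate number as a block, at an adjusted p below 0.05, and in the first scan session alone. The same held when replicate 4 of D30 − DMSO, replicate 3 or 4 of D30 + DMSO or replicate 4 of D34 ± DMSO was left out, so that the count lay between 2 and 3, with an adjusted p for CYP2A13 between 0.00303 and 0.0289. No other count of member probes moved in these comparisons, under these alternatives or when each array was left out. The F-test gave 3 with quantile normalization, with the slide or replicate number as a block and without each array, and was not run under the others. The replicate numbers were not taken to pair the arrays, as deviations from condition means correlated with r from −0.30 to 0.79 over 40 same-numbered pairs (median 0.254, against −0.155 over 120 pairs of other numbers). Over 44 pairs from the same slide, r lay between 0.110 and 0.795 (median 0.369, against −0.162 over 116 pairs from other slides). With the replicate block, 1776 probes in all were called for DMSO addition in place of 1512. Counts over all probes moved by over 1.5 times under some settings. For DMSO addition, they were 755 with normexp correction, 999 among probes well above background on all arrays, 615 with the t-test and 738 at over 3-fold. For removal, normexp, the t-test and 3-fold gave 977, 497 and 934 in place of 1823, from D4 to D15 1596, 1164 and 1379 in place of 2434, and from D15 to D30 + DMSO 887, 590 and 802 in place of 1682. Normexp turned the last from 579 higher and 1103 lower to 415 higher and 472 lower. For D34 ± DMSO against D30 − DMSO, 382 became 179 with the arrays compared alone, 10 with the t-test and 238 at over 3-fold. From D15 to D30 − DMSO, the settings gave between 0 and 10 in place of 1, with 7 when replicate 4 of D15 was left out. For D30 + DMSO against D4, normexp, the t-test and 3-fold gave 3074, 3154 and 2716 in place of 4833. The t-test and 3-fold gave 1459 and 1512 in place of 2648 for D30 − DMSO, and 768 and 1253 in place of 2168 for D34 ± DMSO, each against D4. For D34 ± DMSO against D15, the t-test gave 0 and the other settings between 244 and 767 in place of 506. Reversed signs concerned the second CYP2B6 probe, never called. From D4 to D15, its −0.01 became 0.10 with the slide and 0.12 with the scan session as a block, and between −0.24 and 0.11 when single arrays were left out. From D15 to D30 − DMSO its 0.12 became −0.0053 with the session as a block, and after removal against D30 − DMSO it lay between −0.26 and 0.12. For D34 ± DMSO against D15, its 0.05 became −0.073 with the slide and −0.0816 with the session as a block, and between −0.13 and 0.24 when single arrays were left out. Against D4, D34 ± DMSO went from 0.03 to −0.0002 in the first scan session and to between −0.19 and 0.23, and D30 − DMSO lay between −0.12 and 0.28.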
